A study of Mus musculus with 6 samples.

Results

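The TGF-β and BMP pathway was examined in a mouse cell line that was turning into beige adipocytes. A set of 55 genes was read out of the 56884 gene identifiers in each table by gene name. It holds ligands, proteins that store or process them, secreted antagonists, receptors, SMADs, SMAD regulators and the ID genes. TGF-β, activin, BMP and GDF ligands are secreted dimers that bring together type I and type II receptor kinases. The type I receptor then phosphorylates receptor SMADs (Smad2 and Smad3 after TGF-β or activin, Smad1, Smad5 and Smad9 after most BMPs), which join Smad4 and enter the nucleus. In fat, TGF-β and activin are known as brakes on adipocyte formation, whereas BMP ligands can commit progenitors to the adipocyte fate.

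The cells were a line made from the stromal vascular fraction (SVF) of mouse subcutaneous white adipose tissue (scWAT). A retroviral vector (pMXs-Puro) gave stable lines, selected with puromycin, that overexpressed HA-tagged mouse PPARγ2, the master regulator of adipocyte formation, with a point mutation at the lysine K382. K382Q puts glutamine there and mimics the acetylated lysine, and K382R puts arginine there and mimics the deacetylated form. Each group had 3 libraries labelled as biological replicates, all taken on day 2 of beige induction with isobutylmethylxanthine, indomethacin, dexamethasone, insulin, T3 and rosiglitazone. The labels do not say whether replicates came from separately transduced lines, so the p-values measure the spread between these samples and may not cover differences between lines. There was no wild-type or empty-vector group among the samples analysed, so each difference is K382Q against K382R and has no direction relative to unmodified cells.

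Levels are TPM, a share of all transcripts that is scaled for gene length, so that levels can be compared between genes. A gene was tested when it reached a TPM of 0.5 in at least 3 of the 6 libraries, as 15426 genes did. Differences are on the log2(TPM + 0.5) scale, K382Q minus K382R, and understate the change of low genes. The test was limma, 2-sided, with Benjamini-Hochberg adjustment over all genes tested, and a gene is called here at an adjusted p below 0.05. The alignments behind the libraries came to between 5.95 and 8.15 Gb as estimated from the tables, and no read counts per gene were analysed. Pparg itself ranged from 1104 to 1333 TPM in K382Q and from 1590 to 1632 TPM in K382R (log2 difference -0.43, adjusted p = 0.000977, limma), and the values do not tell the introduced transcript from the cell's own. The median difference of all genes tested was -0.14 and became 0.00 after median-ratio scaling between libraries, so a member is set against that median.

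Of the 55 members, 45 passed the filter and 10 did not. The members and the lists below were chosen with earlier results of these data known. Their shares beside those of all genes are therefore descriptions and not tests. Among the 45, 29 were lower in K382Q (64.4%, against 36.9% of all genes tested) and 2 were higher (4.44%, against 11.1%). Past 2-fold, 7 members were lower (15.6%, against 2.61% of all genes) and 0 were higher (against 1.27%). The median difference over the members was -0.41. The groups did not overlap for 35 members (77.8%, against 57% of all genes). Tgfb2 and Eng passed the filter through K382R libraries alone, and without these 2 the counts were 27 lower and 2 higher of 43, with 6 lower past 2-fold (14%). After median-ratio scaling 24 members were lower (53.3%, against 20.4% of all genes) and 4 were higher (8.89%, against 19.8%), with 6 lower past 2-fold and a member median of -0.26. In bulk RNA, fewer cells of a type and less RNA per cell cannot be told apart.

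**Figure D1:**
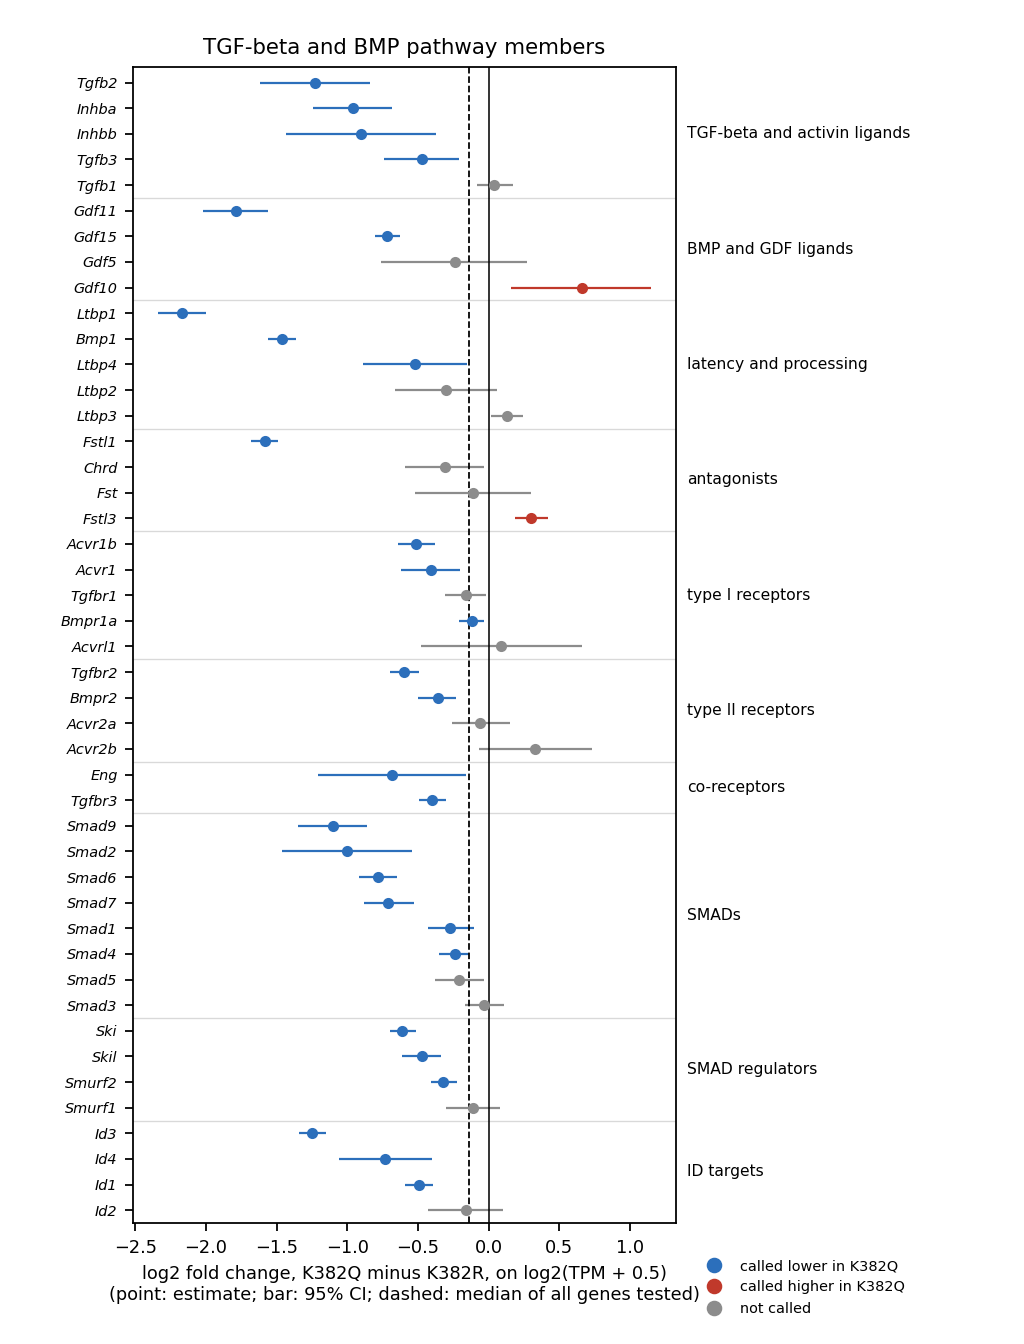
Each point is a tested member, placed by its log2 difference between K382Q and K382R (horizontal axis, on log2(TPM + 0.5)) and grouped by role, with its 95% confidence interval as a bar. The dashed line is the median of all genes tested (-0.14), and 34 of the 45 members lie below it, from -2.17 for Ltbp1 to 0.66 for Gdf10.

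The ID genes are shown first by sequence, since they are the classical early targets of BMP, and Id1, Id2 and Id3 are among the most abundant transcripts of the set. ID proteins bind basic helix-loop-helix factors and keep them off DNA, and they fall when many cell types leave the progenitor state. The following runs are the 250 bases before the start of the canonical transcript (GENCODE M39, GRCm39), at chr2:152577915-152578164 on the plus strand for Id1, at chr12:25147283-25147532 on the minus strand for Id2 and at chr4:135870558-135870807 on the plus strand for Id3. Capitals mark the SMAD binding element, CAGAC, or its reverse complement, GTCTG.
Id1: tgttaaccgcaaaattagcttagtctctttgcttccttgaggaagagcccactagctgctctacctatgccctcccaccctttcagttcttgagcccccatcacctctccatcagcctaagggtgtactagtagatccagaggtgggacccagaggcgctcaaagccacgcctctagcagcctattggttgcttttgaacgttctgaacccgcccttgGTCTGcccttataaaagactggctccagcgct
Id2: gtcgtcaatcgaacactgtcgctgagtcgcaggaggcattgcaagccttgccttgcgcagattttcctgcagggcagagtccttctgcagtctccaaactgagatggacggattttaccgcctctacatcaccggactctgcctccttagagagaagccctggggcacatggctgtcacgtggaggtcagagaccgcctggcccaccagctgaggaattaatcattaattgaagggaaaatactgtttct
Id3: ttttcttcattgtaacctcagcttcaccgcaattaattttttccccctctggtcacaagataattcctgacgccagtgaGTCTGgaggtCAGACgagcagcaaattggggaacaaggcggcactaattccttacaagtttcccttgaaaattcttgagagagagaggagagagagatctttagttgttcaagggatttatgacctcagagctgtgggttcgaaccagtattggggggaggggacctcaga
The Id3 window held 2 of these elements, that of Id1 held 1 and that of Id2 held 0. The element is short, and 41.2% of the 15370 promoter windows of tested genes contained it, against 21 of the 45 tested members (46.7%). A GC-rich site bound by Smad1 and Smad5, GGCGCC, was in 12.3% of all windows and in 13 of the 45 (28.9%). These 13 windows were 51.2 to 83.6% G and C, and the shares were not matched for base composition. None of the Id1, Id2 and Id3 windows held the site, while that of Id4, not printed here, held 1. The core motif of nuclear receptors, AGGTCA, was in 11.8% of all windows and in 7 of the 45 (15.6%), among them Id3 with 2 and Id2 with 1. All were counted on both strands. A match of letters is no binding site, and the known BMP-responsive region of Id1 lies further upstream than this window.

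Id3 had the highest mean level of the set over the 6 libraries and was more than 2-fold lower in K382Q. It stood at 187, 202 and 208 TPM in the K382Q libraries and at 475, 473 and 470 TPM in the K382R libraries (chr4:135870808-135873066). The 3 K382R libraries lay within a few TPM of each other and far above every K382Q library. The log2 difference was -1.25 (SE 0.041, adjusted p = 8.02e-07, limma). Id1 was also lower, at 159 ± 8.17 TPM against 224 ± 6.96 TPM (SD, n = 3 libraries each; log2 difference -0.49, limma adjusted p = 7.26e-05), and so was the sparse Id4 (0.956 ± 0.116 against 1.91 ± 0.1 TPM, log2 difference -0.73, limma adjusted p = 0.00355). Id2 overlapped between the groups, with 94.7 to 120.1 TPM in K382Q and 102 to 132 TPM in K382R (log2 difference -0.16, 95% confidence interval -0.43 to 0.10), and was not called. The make-up of the family therefore differed, with Id3 giving 41.9 to 43.1% of the summed ID transcripts in K382Q and 56.5 to 59.6% in K382R, while the share of Id2 was 21.8 to 24.2% and 12.8 to 16%. These shares are taken within a library and do not depend on the scaling between libraries.

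**Figure D2:**
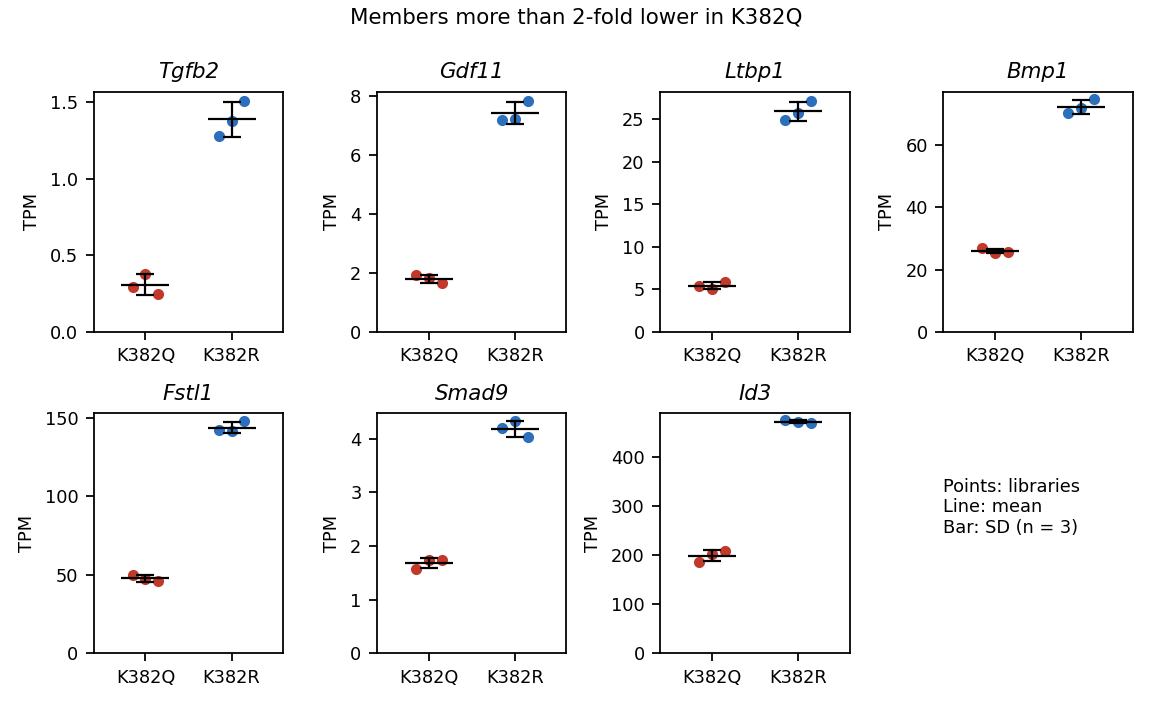
Each panel shows TPM (vertical axis, from 0) of 1 of the 7 members more than 2-fold lower in K382Q, with a point per library, the mean as a line and the SD as a bar (n = 3). In all 7 panels every K382Q library lies below every K382R library.

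Among the TGF-β and activin ligands, 4 of 5 were lower (80%, against 36.9% of all genes tested, with Tgfb2 passing the filter through K382R alone) and the abundant Tgfb1 was not. Tgfb1, the main TGF-β of fat stroma, measured 37.7, 40 and 36.4 TPM in K382Q and 34.8, 38.3 and 37.7 TPM in K382R. The groups overlapped (log2 difference 0.04, 95% confidence interval -0.08 to 0.17, limma adjusted p = 0.553). With median-ratio scaling Tgfb1 was called higher in K382Q (0.19, limma adjusted p = 0.0253). Tgfb2, a second TGF-β isoform (chr1:186354989-186438186), was near the floor, at 0.293, 0.379 and 0.243 TPM in K382Q and 1.28, 1.38 and 1.5 TPM in K382R. Every K382Q library was below the filter level and every K382R library above it. Its log2 difference was -1.23 (SE 0.169, limma adjusted p = 0.000657). On the coverage scale described with Smad2 it was -0.67 (limma adjusted p = 0.00162). The constant of 0.1 added on that scale shrinks the difference of a gene this low. The coverage itself was 0.107 to 0.164 in K382Q and 0.611 to 0.741 in K382R, before division by the aligned Gb. Inhba, the activin A subunit, was at 3.75 ± 0.616 TPM in K382Q and 7.73 ± 0.303 TPM in K382R (log2 difference -0.96, limma adjusted p = 0.000403). Inhbb, the activin B subunit induced in adipocytes, reached the filter in 1 K382Q library and 3 K382R libraries (0.389 ± 0.249 against 1.12 ± 0.088 TPM, log2 difference -0.90). Tgfb3 was lower by a smaller step, at 2.51 ± 0.204 against 3.67 ± 0.319 TPM, and it overlaps Ttll5 on the other strand (mean 8.76 TPM), whose reads this kit cannot tell from those of Tgfb3. Within each library Tgfb1 made up 92.8 to 93.8% of the 3 TGF-β transcripts in K382Q and 87.7 to 88.3% in K382R.

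Transcripts of the classical BMP ligands were scarce. Bmp2, Bmp3, Bmp4, Bmp6, Bmp7, Bmp8b and Gdf6 stayed under the filter, with a highest TPM in any library of 0.158, for Bmp3. Bmp6 and Bmp7 were listed at 0 in every library. Of the 4 BMP and GDF ligands tested, Gdf11 and Gdf15 were lower (50%, against 36.9% of all genes tested). Gdf10 was higher (25%, against 11.1%) and Gdf5 was not called. Gdf11, a relative of myostatin that signals through activin receptors (chr10:128718164-128727587), measured 1.91, 1.81 and 1.65 TPM in K382Q and 7.2, 7.24 and 7.84 TPM in K382R. The groups were far apart (log2 difference -1.79, SE 0.0979, limma adjusted p = 6.6e-06). Gdf15, a stress-induced hormone that acts on the hindbrain receptor GFRAL rather than on SMADs, was the most abundant ligand of the set. It stood at 144, 156 and 145 TPM in K382Q and at 248, 242 and 244 TPM in K382R. Again no K382Q library reached the K382R range (log2 difference -0.72, SE 0.0369, limma adjusted p = 5.1e-06). Gdf10, also called BMP3B, was near the filter level, at 0.841 ± 0.121 TPM in K382Q and 0.359 ± 0.175 TPM in K382R (log2 difference 0.66, limma adjusted p = 0.035), and lost its call when any library except K382R replicate 3 was left out (adjusted p between 0.0517 and 0.105).

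Proteins that store or process the ligands held the member with the largest difference. Of these 5 genes, 3 were lower (60%, against 36.9% of all genes tested), and 2 with median-ratio scaling (40%, against 20.4%). Latent TGF-β binding proteins tether the inactive ligand to the matrix. Ltbp1 (chr17:75312563-75699507) was at 5.36, 4.97 and 5.8 TPM in K382Q and at 25, 25.7 and 27.1 TPM in K382R. Its K382R mean was 4.82 times its K382Q mean, and the log2 difference of -2.17 (SE 0.0727, limma adjusted p = 8.51e-07) was the 22nd lowest of the 15426 genes. Bmp1, a metalloprotease that trims procollagens and releases ligands from LTBP1 and chordin (chr14:70711998-70757674), followed. It measured 26.8, 25.4 and 25.8 TPM in K382Q and 70.3, 72.1 and 74.8 TPM in K382R. Within each group these values were close together, and the groups did not overlap (log2 difference -1.46, SE 0.0416, limma adjusted p = 4.38e-07).

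Ltbp3, the dominant LTBP here, did not follow Ltbp1. It ranged from 192 to 215 TPM in K382Q and from 181 to 193 TPM in K382R (log2 difference 0.13, limma adjusted p = 0.0527), and was called higher with median-ratio scaling (0.28, limma adjusted p = 0.00285). The library kit does not mark strand, so reads from the opposite strand of this locus may be mixed into the Ltbp3 values. Ltbp4 was lower at a low level (0.679 ± 0.0867 against 1.19 ± 0.109 TPM, limma adjusted p = 0.0289, and 0.0703 with median-ratio scaling) and Ltbp2 was not called. Ltbp1 gave 2.24 to 2.91% of the summed LTBP transcripts in K382Q libraries and 11.4 to 12.9% in K382R libraries.

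**Figure D3:**
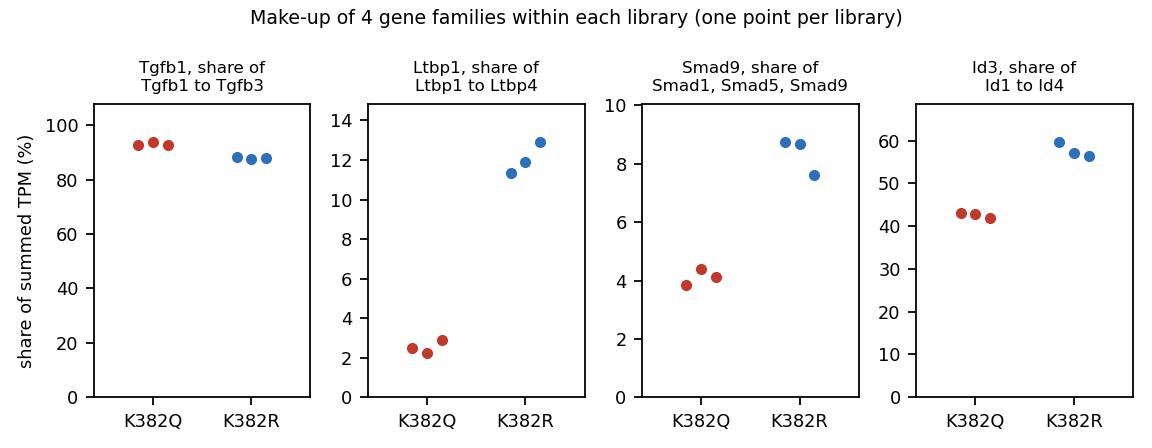
Points give, for each library, the percent of a family's summed TPM that comes from 1 gene (vertical axis): Tgfb1 among 3 TGF-β genes, Ltbp1 among 4 LTBP genes, Smad9 among Smad1, Smad5 and Smad9, and Id3 among 4 ID genes. K382Q and K382R libraries do not overlap in any panel, with the Ltbp1 share at 2.91% or less in K382Q and 11.4% or more in K382R.

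Of the 4 secreted antagonists tested, 1 was lower (25%, against 36.9% of all genes tested) and 1 was higher (25%, against 11.1%). Fstl1, a follistatin-like glycoprotein of mesenchymal cells that can bind BMP4 (chr16:37597235-37656876), measured 49.9, 47.3 and 45.7 TPM in K382Q and 142, 141 and 148 TPM in K382R. The K382R mean was 3.02 times the K382Q mean (log2 difference -1.58, SE 0.0412, limma adjusted p = 3e-07). Fstl3, which binds and blocks activins and myostatin, went the other way. It was at 36.7, 41.3 and 40.2 TPM in K382Q and at 31.7, 31.7 and 31.9 TPM in K382R. All K382Q libraries were above all K382R libraries (log2 difference 0.30, SE 0.0506, limma adjusted p = 0.00171). The ratio of Fstl1 to Fstl3 was 1.14 to 1.36 in K382Q and 4.46 to 4.63 in K382R. Fst, the follistatin that blocks activin, overlapped between the groups at 1.49 ± 0.385 and 1.63 ± 0.158 TPM. Chrd, which encodes the BMP trap chordin, was at 2.54 ± 0.215 and 3.27 ± 0.332 TPM and was not called (limma adjusted p = 0.0655). Nog stayed at or under 0.237 TPM. Grem1 reached the filter level in only 2 K382R libraries, at 1.01, 0.401 and 0.845 TPM in K382R against 0.383, 0.223 and 0.233 TPM in K382Q, and was not tested.

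Of the 11 receptors and co-receptors tested, 7 were lower (63.6%, against 36.9% of all genes tested), 0 were higher and none passed 2-fold. With median-ratio scaling 5 of 11 were lower (45.5%, against 20.4%). Tgfbr2, the type II receptor that binds TGF-β itself, measured 18.1, 18.9 and 17.8 TPM in K382Q and 28.1, 27.4 and 28.2 TPM in K382R. The groups were well apart (log2 difference -0.60, SE 0.0461, limma adjusted p = 3.59e-05). Its partner Tgfbr1 was at 11.7 ± 0.594 and 13.2 ± 0.23 TPM and was not called (limma adjusted p = 0.0578), and the ratio of Tgfbr2 to Tgfbr1 was 1.47 to 1.69 in K382Q and 2.04 to 2.17 in K382R. Acvr1b, the activin receptor ALK4, measured 11.1, 11.2 and 10.6 TPM in K382Q and 16.1, 15.4 and 16 TPM in K382R, without overlap (log2 difference -0.51, SE 0.0554, limma adjusted p = 0.000198). Bmpr1a, a BMP type I receptor and the most abundant receptor kinase of the set, stood at 36.9, 35.1 and 35.1 TPM in K382Q and at 38.2, 39.4 and 39 TPM in K382R. This small gap was called (log2 difference -0.12, SE 0.0401, limma adjusted p = 0.0387), but its sign turned with median-ratio scaling (0.03, adjusted p = 0.561). Bmpr1b was at most 0.0521 TPM. Acvr1, also a BMP type I receptor, was lower (9.06 ± 0.565 against 12.2 ± 1.29 TPM, log2 difference -0.41), as was the BMP type II receptor Bmpr2 (12.3 ± 0.638 against 15.9 ± 0.164 TPM, log2 difference -0.36). The activin type II receptors Acvr2a and Acvr2b and the endothelial receptor Acvrl1 were not called, with log2 differences of -0.06, 0.33 and 0.09. Acvr2a overlaps Orc4 on the other strand (mean 26.3 TPM), whose reads may be mixed into its values.

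Both co-receptors were lower (100% of 2, against 36.9% of all genes tested), and 1 of 2 with median-ratio scaling (50%, against 20.4%). Tgfbr3, betaglycan, which presents TGF-β2 and binds inhibin, measured 43.4, 41.2 and 42 TPM in K382Q and 56.8, 54 and 56.1 TPM in K382R. There was no overlap (log2 difference -0.40, SE 0.0391, limma adjusted p = 0.000124). Eng, endoglin, which passed the filter through K382R alone, was low throughout, at 0.328, 0.401 and 0.253 TPM in K382Q and 0.604, 0.728 and 1.21 TPM in K382R. The K382R libraries were spread over a 2-fold range and all lay above K382Q (log2 difference -0.68, SE 0.225, limma adjusted p = 0.0381). This call was lost with median-ratio scaling (adjusted p = 0.0652) and when any library except K382R replicate 1 was left out (0.0616 to 0.125), and Eng overlaps Fpgs on the other strand. Of 8 endothelial markers, Cdh5, Kdr, Tie1, Tek, Vwf, Cldn5 and Emcn were at 0.165 TPM or less in every library. Pecam1 was at 1.75 ± 0.294 TPM in K382Q and 1.53 ± 0.0378 TPM in K382R and was not called (limma adjusted p = 0.449), and the summed level of the 8 endothelial markers was 1.70 to 2.28 TPM in K382Q and 1.71 to 1.94 TPM in K382R.

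Of the 8 SMADs, 6 were lower (75%, against 36.9% of all genes tested) and Smad3 and Smad5 were not called. With median-ratio scaling 4 of 8 were lower (50%, against 20.4%). Smad9, the BMP-branch SMAD also known as Smad8 (chr3:54663003-54708678), measured 1.57, 1.74 and 1.74 TPM in K382Q and 4.19, 4.33 and 4.03 TPM in K382R. It was the scarcest SMAD and the one with the largest difference (log2 difference -1.10, SE 0.106, limma adjusted p = 0.000106), which median-ratio scaling put at -0.97. Among Smad1, Smad5 and Smad9 it made up 3.84 to 4.38% of transcripts in K382Q and 7.6 to 8.74% in K382R. Smad4, the shared partner of all receptor SMADs, measured 37.4, 37.1 and 35 TPM in K382Q and 43.6, 41.8 and 44.3 TPM in K382R. The gap was narrow (log2 difference -0.24, SE 0.0444, limma adjusted p = 0.0028) and was not called with median-ratio scaling (-0.09, adjusted p = 0.125). The same scaling ended the call of Smad1 (log2 difference -0.27, and -0.12 scaled).

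The inhibitory SMADs, which BMP and TGF-β induce as negative feedback, were both lower. Smad6, the inhibitor of the BMP branch, was at 12.6 ± 0.409 TPM in K382Q and 22.1 ± 1.19 TPM in K382R (log2 difference -0.78, limma adjusted p = 3.32e-05). Smad7, which blocks both branches, was at 4.98 ± 0.251 and 8.43 ± 0.0758 TPM (log2 difference -0.71, limma adjusted p = 0.00018). Smad3, the SMAD that binds DNA directly in the TGF-β branch, was level at 12.3 ± 0.523 and 12.6 ± 0.331 TPM (log2 difference -0.03, 95% confidence interval -0.17 to 0.11).

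Smad2, the other TGF-β and activin SMAD, gave different answers in the deposited columns. By TPM it was at 29.3, 18 and 25.1 in K382Q and at 53.4, 54.5 and 37.3 in K382R, with a log2 difference of -1.0 (SE 0.198, limma adjusted p = 0.00415). These are among the most scattered values of any abundant member. The coverage column of the same tables was divided by the aligned Gb of each library, and 0.1 was added before taking log2. It gave -0.15 (limma adjusted p = 0.0611). This comparison was added after the data were seen. Coverage-based differences for Acvr1, Smad1 and Bmpr1a also missed the threshold (-0.28, -0.18 and -0.04, limma adjusted p = 0.0675, 0.0691 and 0.425). Ltbp1, Bmp1, Fstl1, Gdf11, Smad9 and Id3 stayed past 2-fold on coverage, at -2.10, -1.35, -1.5, -1.84, -1.12 and -1.17.

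Of the 4 SMAD regulators, 3 were lower (75%, against 36.9% of all genes tested), by modest steps. Ski, a corepressor that holds SMAD complexes inactive, measured 26.1, 27.4 and 27.5 TPM in K382Q and 42.2, 40.6 and 41.3 TPM in K382R. No library of one group came near the other (log2 difference -0.61, SE 0.0415, limma adjusted p = 1.98e-05). Smurf2, a ubiquitin ligase that marks SMADs and receptors for destruction, measured 40.4, 38.3 and 38.9 TPM in K382Q and 47.9, 48.7 and 50.1 TPM in K382R. The groups were again separate (log2 difference -0.32, SE 0.0393, limma adjusted p = 0.0004). Skil, the Ski relative SnoN and itself a TGF-β target, was at 12.6 ± 0.588 and 17.7 ± 0.515 TPM (log2 difference -0.47). Smurf1 was not called (29 ± 3.17 and 31.3 ± 1.79 TPM, log2 difference -0.11).

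**Figure D4:**
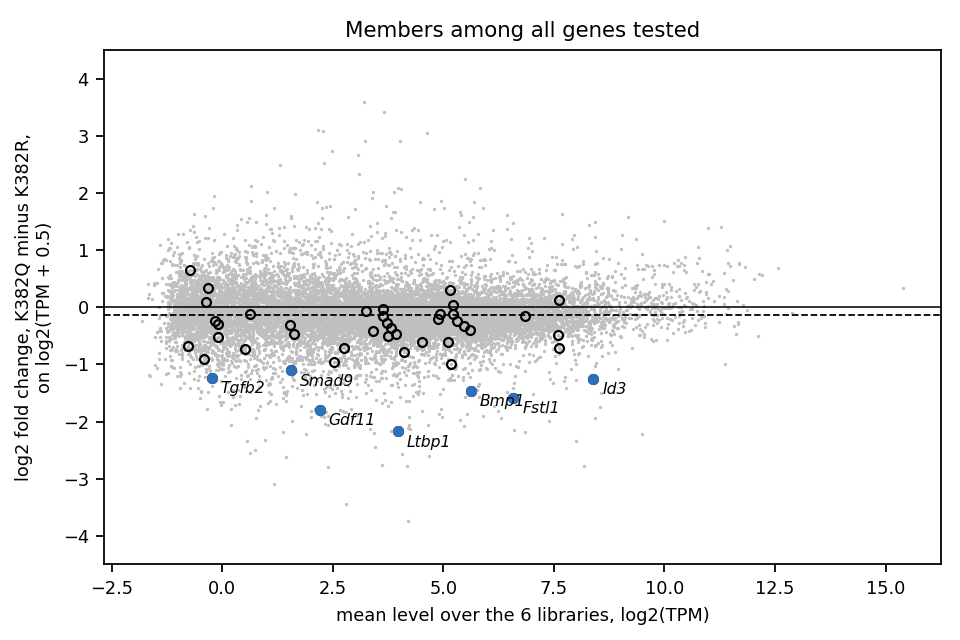
Every tested gene is placed by its mean level (horizontal axis, log2 TPM) and its log2 difference between K382Q and K382R (vertical axis), with 1 gene beyond the vertical limits. Circles are the 45 tested members, and the 7 filled and named ones are past 2-fold, from Tgfb2 at 0.243 to 1.5 TPM to Id3 at 187 to 475 TPM.

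Further genes of the pathway were read from 4 lists outside the 55, also chosen with earlier results of these data known. Of 79 genes, 51 were tested, 27 were lower (52.9%, against 36.9% of all genes tested) and 4 were higher (7.84%, against 11.1%), with a median difference of -0.24 against -0.14 for all genes. With median-ratio scaling 15 were lower (29.4%, against 20.4%) and 8 were higher (15.7%, against 19.8%). Of 17 tested secreted modulators, 12 were lower (70.6%, against 36.9% of all genes tested) and 2 higher (11.8%, against 11.1%). With median-ratio scaling 10 were lower (58.8%, against 20.4%) and 3 higher (17.6%, against 19.8%). Nbl1, a BMP antagonist of the DAN family, was at 1.64 ± 0.302 and 8.33 ± 0.726 TPM (log2 difference -2.05), and Thbs1, thrombospondin 1, which can activate latent TGF-β, at 3.32 ± 0.0496 and 11 ± 0.312 TPM (log2 difference -1.59). Htra3, a secreted serine protease that can restrain TGF-β signalling, was higher, at 227 ± 12.2 against 124 ± 3.41 TPM (log2 difference 0.88, limma adjusted p = 4.72e-06).

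Among other receptors 3 of 6 were lower (50%, against 36.9% of all genes tested) and 1 was higher (16.7%, against 11.1%). With median-ratio scaling 1 was lower and 1 higher (16.7% each, against 20.4% and 19.8%), which is near the shares of all genes. Lrrc32, the cell-surface anchor GARP for latent TGF-β, was at 2.54 ± 0.245 TPM in K382Q and 10.1 ± 0.857 TPM in K382R (log2 difference -1.81, limma adjusted p = 8.45e-06). Acvr1c, the receptor ALK7 that marks maturing adipocytes, was higher, at 2.29 ± 0.451 against 0.951 ± 0.12 TPM (log2 difference 0.93, limma adjusted p = 0.00263). Bambi, a decoy receptor, and Rgmb, a BMP co-receptor, were lower (log2 differences -0.45 and -0.40), though not with median-ratio scaling (limma adjusted p = 0.0717 and 0.0935). Of 17 other ligands only 5 were tested, 1 was lower and 1 was higher (20% each, against 36.9% and 11.1% of all genes tested). Bmp8a, a BMP with the close paralog Bmp8b with which reads may be shared, was lower at 0.177 ± 0.108 against 1.11 ± 0.0558 TPM (log2 difference -1.26, limma adjusted p = 0.00125), and passed the filter through K382R alone. Inha, the inhibin α subunit, was higher at 2.51 ± 0.708 against 1.2 ± 0.253 TPM (log2 difference 0.81, limma adjusted p = 0.0115). Among 23 tested intracellular regulators 11 were lower (47.8%, against 36.9% of all genes) and 0 higher, and with median-ratio scaling 3 were lower and 3 higher (13% each, against 20.4% and 19.8%). Pmepa1, a TGF-β-induced feedback inhibitor, was at 15.4 ± 0.821 and 44.9 ± 3.15 TPM (log2 difference -1.51, limma adjusted p = 2.57e-06), and the deubiquitinase Usp4 had a log2 difference of -0.39. The corepressor Tgif2 (-0.47, limma adjusted p = 0.0413) overlapped between the groups and was not called with median-ratio scaling (adjusted p = 0.141).

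Response genes of the pathway were counted last, from lists also chosen with earlier results of these data known. In the TGF-β list 15 of 22 were lower (68.2%, against 36.9% of all genes tested) and 3 were higher (13.6%, against 11.1%), with a median difference of -0.48. In the BMP list 7 of 10 were lower (70%) and 0 were higher, with a median of -0.45. With median-ratio scaling the TGF-β list had 14 lower (63.6%, against 20.4% of all genes tested) and 4 higher (18.2%, against 19.8%). That share of higher genes is near the share of all genes. The BMP list then had 6 lower (60%, against 20.4%) and 0 higher (against 19.8%). Acta2, smooth muscle actin, was at 0.764 ± 0.0824 TPM in K382Q and 13.2 ± 1.02 TPM in K382R (log2 difference -3.44, limma adjusted p = 6.51e-07). Ccn2, connective tissue growth factor, was at 6.86 ± 0.493 and 44.3 ± 3.09 TPM (log2 difference -2.61), and Postn, periostin, at 142 ± 1.89 and 543 ± 22.5 TPM (log2 difference -1.93). The cell cycle inhibitors Cdkn1a and Cdkn2b were higher in K382Q (log2 differences 0.36 and 0.28). The response list thus held genes that moved in both directions, and Bhlhe40 was the highest of them (1.37). In the BMP list Atoh8 stood out, at 11.2 ± 0.657 against 29.1 ± 0.97 TPM (log2 difference -1.34, limma adjusted p = 2.89e-06), and the homeobox genes Msx2 and Msx1 were lower, with log2 differences of -0.82 and -0.56.

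**Figure D5:**
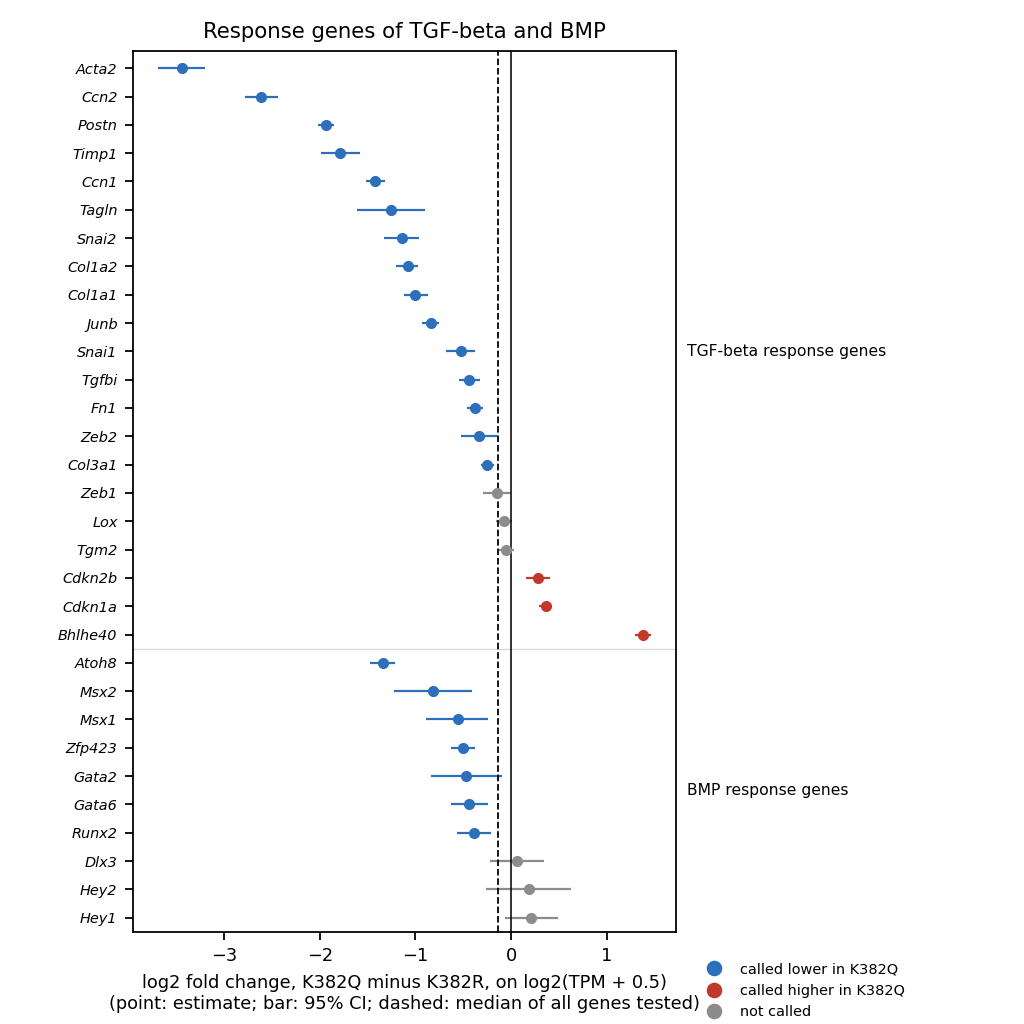
Each point is 1 of 31 drawn from the 32 tested response genes of TGF-β or BMP, placed by its log2 difference between K382Q and K382R (horizontal axis, on log2(TPM + 0.5)) with its 95% confidence interval. Acta2 is lowest at -3.44 and Bhlhe40 is highest at 1.37.

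Cell state differed between the groups alongside these genes. The summed level of 8 adipocyte progenitor markers was 463 to 509 TPM in K382Q and 774 to 811 TPM in K382R. Most of these sums was Ly6a, and the other 7 markers summed to 11.4 to 13.0 TPM and 22.1 to 25.1 TPM. All 4 that were tested (Ly6a, Pdgfra, Pdgfrb and Thy1) were lower (100%, against 36.9% of all genes tested), while Dpp4 was listed at 0. Of 8 adipocyte markers, 3 were higher (Fabp4, Cd36 and Cidec; 37.5%, against 11.1% of all genes tested) and 2 were lower (Adipoq and Lpl; 25%, against 36.9%), with summed levels of 54260.2 to 58084 TPM and 44733 to 46029.5 TPM. Most of these sums was Fabp4, and the other 7 markers summed to 7792 to 7907 TPM and 7343 to 7489 TPM. Adipoq had the largest difference of the 8, at 148 ± 1.2 TPM in K382Q and 360 ± 20.2 TPM in K382R. Its log2 difference was -1.28 (limma adjusted p = 7.63e-07), or -1.13 with median-ratio scaling and -1.20 with quantile normalization. Those of Fabp4, Cd36 and Cidec were 0.34, 0.43 and 0.27. With median-ratio scaling 5 were higher (62.5%, against 19.8%), Plin1 and Pnpla2 added, and Lpl was no longer called lower (-0.03, limma adjusted p = 0.405). Lpl was lower with quantile normalization (-0.41, limma adjusted p = 4.85e-05). With quantile normalization 1 was higher, Cd36, and Fabp4 and Cidec were not called (0.00 and 0.07, limma adjusted p = 1 and 0.221). Of 8 smooth muscle and pericyte markers, 4 were tested and 2 were higher (Des and Smtn; 50%, against 11.1%), with sums of 40.9 to 45.5 TPM and 28.8 to 29.4 TPM, or 10.3 to 11.4 TPM and 9.01 to 9.70 TPM without Smtn. With median-ratio scaling 3 were higher (75%, against 19.8%), Cspg4 added (0.57, limma adjusted p = 0.042). Notch3 was not called (log2 difference -0.32, limma adjusted p = 0.0568), Cnn1 was under the filter at 0.175 ± 0.0484 and 0.43 ± 0.0906 TPM, and Acta2, also a smooth muscle gene, was lower as given among the response genes. Leukocyte genes were at or near 0 apart from Cd68, which ranged from 3.17 to 5.10 TPM over all libraries. The part of these shifts in the differences of the TGF-β and BMP genes was not tested.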

How the data were processed

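RNA-seq libraries of 3 K382Q and 3 K382R cultures (NEBNext Ultra RNA kit) were processed by the authors with TrimGalore 0.6.7, HISAT2 2.2.1 on GRCm39 and StringTie 2.2.1, whose gene tables were deposited per library. The TPM and FPKM values and the coverage column deposited by the authors were used, and the annotation release is not given in the sources used here. The authors' gene counts were not analysed here, so a count model was not run. Rows sharing an identifier in a library (at most 8) were summed.

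Genes that reached 0.5 TPM in 3 or more libraries were fitted with limma 3.58.1 (lmFit, eBayes with an intensity trend; R 4.3.3) on log2(TPM + 0.5), the 6 libraries in 1 fit, with Benjamini-Hochberg adjustment over 15426 genes. The fit was checked on simulated data, and the outcome is not reported here. Aligned bases per library were estimated from the commonest ratio of coverage to FPKM. The members and lists were chosen with earlier results of these data known. Values in every library were given for members past adjusted p = 0.05 and 2-fold and, in roles with fewer than 2 of these, for the called member with the largest difference and the most abundant one. Up to 3 called genes of each other list with a mean TPM of at least 1 were named, Smad2, Fstl3, Grem1, Htra3, Rgmb, Cdkn1a, Cdkn2b and Bhlhe40 were added after their values were seen, and the remaining members are given by group means or counts. Promoter windows were read with pysam from GRCm39 and GENCODE M39 for 15370 genes. Alternatives were other pseudocounts, filters, scalings and variance models, a replicate block, leaving out each library, and coverage per aligned Gb, the last chosen after seeing the data. Some genes of the other lists are counted but not reported here.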

Additional observations from a re-analysis of the deposited data

How the results depend on the processing

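Over 17 alternatives, 23 of the 31 member calls held in all of them and 30 never turned sign; 26 held with each library left out in turn. The count of lower members stayed between 24 and 31. The count of higher members became 4 with median-ratio scaling, quantile normalization or coverage per aligned Gb, and 1 to 2 when a library was left out (1 without replicate 1 or 2 of either group). Members past 2-fold lower numbered 11 with a pseudocount of 0.1 and 17 at a 1.5-fold threshold, and members past 2-fold higher numbered 1 in both. The member median was -0.39 with a pseudocount of 1, -0.47 with TPM of at least 1, -0.31 with FPKM, -0.31 on coverage per aligned Gb, -0.26 with median-ratio scaling or quantile normalization, and between -0.48 and -0.38 with a library left out. In the other pathway lists, lower genes numbered 15 with median-ratio scaling and 16 with quantile normalization, and higher genes 8 in both and 2 with no filter. Sign turns were Bmpr1a (0.03 median-ratio, 0.04 quantile) and members that were not called: Fst (0.00 median-ratio, -0.25 to 0.03 with a library left out), Acvrl1 (-0.10 to 0.24 with a library left out, -0.10 on coverage), Acvr2a (0.02 FPKM, 0.09 median-ratio, 0.09 quantile, -0.11 to 0.02 with a library left out, 0.02 on coverage), Smad3 (0.05 FPKM, 0.12 median-ratio, 0.13 quantile, -0.05 to 0.00 with a library left out, 0.05 on coverage) and Smurf1 (0.04 median-ratio, 0.04 quantile). Besides Gdf10 and Eng, calls lost to a left-out library were Bmpr1a (any library except K382Q replicate 1, adjusted p 0.0647 to 0.113), Ltbp4 (replicates 1 and 3 of K382Q, 1 and 2 of K382R, 0.0711 to 0.0903) and Smad1 (replicate 3 of either group and K382R replicate 1, 0.0513 to 0.0529). The cause was not tested.

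With the replicate number as a block, 28 members were lower and 2 higher, with 4 calls lost and 3 gained. Same-numbered libraries did not deviate together (correlations -0.0177, 0.0507 and 0.0223). The labels do not say whether same-numbered cultures were handled together, and correlations over 3 libraries per group cannot settle it. Depth may limit the members near 0.5 TPM, which was not tested.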
